A study of Mus musculus with 35 samples.

Results

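Open chromatin was examined at 9 genes of the interferon response and of antigen presentation on class I molecules: the transcription regulators Irf1, Irf7 and Nlrc5, the class I heavy chains H2-K1 and H2-D1, their light chain B2m, the immunoproteasome subunits Psmb8 and Psmb9, and the peptide transporter subunit Tap1. The authors' table of ATAC-seq regions from purified mouse hepatocyte nuclei was searched for regions whose nearest start site, in the authors' annotation, belonged to one of these genes and lay within 100 kb. This gave 66 regions of 400 bp, of 177904 in all. Irf1 had 21 of them, B2m 12, Nlrc5 8, Irf7 6, H2-K1 5, Psmb9 5, Tap1 4, Psmb8 3 and H2-D1 2. Of the 66 regions 22 lay within 1 kb of a start site, and 22 overlapped another of the 66, so neighboring regions share reads. All 66 passed the filter on low values.

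As background, interferons act through receptor-bound JAK kinases, and genes that interferon gamma induces, Irf1 among them, carry GAS elements in their promoters. IRF1 then binds interferon-stimulated response elements (ISREs) and, with the class I transactivator NLRC5, raises transcription of the class I heavy chains, B2m, the immunoproteasome and the peptide transporter. Hepatocytes carry little class I at rest and more of it during inflammation.

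ATAC-seq measures how often a transposase cuts, and so how open the chromatin is. All mice carried the CAG-Sun1/sfGFP nuclear tag together with Albumin-Cre, so that hepatocyte nuclei bore the tag and could be pulled down from liver. Tumor cells were implanted into mice of the matching strain. The labels give 4 cohorts, named C26, 8025, NC26 and MC38 after the cancer model, and 9 groups. The C26 cohort (BALB/c; C26 is a mouse colon carcinoma line that causes wasting) had 4 mice each in its PBS, pre-cachexia and cachexia groups. For line 8025 (C57BL/6N) there were 4 mice with cachexia and 3 given PBS. The NC26 cohort (BALB/c) and the MC38 cohort (C57BL/6N; MC38 is another mouse colon carcinoma line) each held 4 animals with a weight-stable tumor and 4 PBS animals. Cachexia meant a body weight loss of more than 10%, and livers were taken at zeitgeber time 9. Each library came from its own animal. Strain, cohort and tumor line went together, so each tumor-bearing group was set against the PBS group of its own cohort.

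Depth was 3.47 M (mega) tags in the shallowest library, NC26 tumor replicate 1, and 11.3 to 23.8 M in all others. Regions took up 37.3 to 62.9% of the tags. Library names formed a series A, with all C26 libraries, and a series B, with all 8025 libraries, while NC26 and MC38 groups were split between them by replicate number (1 and 2 in A, 3 and 4 in B). Of 10 hepatocyte markers 9 had a promoter region, among them Alb with a mean of 279 tags per 10 M, higher than 99.5% of regions. No promoter region was listed for any of 12 T and NK cell or 6 B cell markers, nor for 10 of 14 macrophage markers, among them Clec4f, Csf1r and Ptprc. The other 4, Adgre1, C1qa, C1qb and C1qc, averaged 3.56 to 5.64. In the 8025 cohort the summed promoter signal of these 4 macrophage genes was 33.2 to 40.8 in cachexia and 14.5 to 17.8 in PBS libraries. Summed signal at 3 neutrophil marker promoters, mostly Elane, was 57.9 to 67.7 in C26 cachexia, 55.7 to 70.9 in C26 pre-cachexia and 34 to 53.2 in C26 PBS, and 55.2 to 80.7 in 8025 cachexia against 38.8 to 45.5 in 8025 PBS. Class II presenting cell markers, whose 8 promoter regions (mostly Zbtb46) summed to 246 to 293 in 8025 cachexia and 217 to 245 in 8025 PBS, overlapped between C26 cachexia (198 to 226) and C26 PBS (159 to 222). At 3 cholangiocyte marker promoters the sums were 72.6 to 82.6 in C26 cachexia and 37.7 to 67.2 in C26 PBS, without overlap, and 92.1 to 120 in 8025 cachexia and 65.9 to 93.1 in 8025 PBS. Of 9 endothelial markers 1, Kdr, had a promoter region, with 10.3 to 14.8 in C26 cachexia and 7.97 to 10.2 in C26 PBS, while 4 stellate cell promoters summed to 53 to 75.9 in 8025 cachexia and 77.6 to 100 in 8025 PBS. The part of other cell types in the changes below was not tested, and in such bulk samples fewer cells of a type and less signal per cell cannot be told apart.

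RefSeq promoter sequences (GRCm38.p6, the mm10 build) were found for 8 of the 9 members. Of these, 5 windows are shown: the 250 bases before the start site of Irf1, H2-D1, H2-K1 and B2m, and the 225 bases between the start sites of Psmb9 and Tap1, which are transcribed away from each other. Whether the letters in these windows bear on the promoter changes was not tested. Capitals mark matches, on either strand, to the GAS element TTCNNNGAA, the ISRE core GAAANNGAAA or the NF-kB consensus. Of 32841 mouse promoter windows of 250 bases, 7.02% held the GAS letters, 2.98% the ISRE letters and 7.25% the NF-kB consensus.
Irf1, chr11:53769764-53770013, plus strand: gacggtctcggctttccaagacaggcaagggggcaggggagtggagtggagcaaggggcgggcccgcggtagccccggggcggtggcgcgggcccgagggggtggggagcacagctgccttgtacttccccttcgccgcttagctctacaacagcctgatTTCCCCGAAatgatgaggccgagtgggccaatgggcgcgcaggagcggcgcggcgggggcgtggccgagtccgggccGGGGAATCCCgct
H2-D1, chr17:35262844-35263093, plus strand: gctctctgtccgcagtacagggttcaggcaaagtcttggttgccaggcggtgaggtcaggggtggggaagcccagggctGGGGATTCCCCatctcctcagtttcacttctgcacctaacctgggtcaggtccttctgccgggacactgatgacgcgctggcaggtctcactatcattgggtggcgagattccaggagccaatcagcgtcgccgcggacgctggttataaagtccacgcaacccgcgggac
H2-K1, chr17:34000348-34000597, minus strand: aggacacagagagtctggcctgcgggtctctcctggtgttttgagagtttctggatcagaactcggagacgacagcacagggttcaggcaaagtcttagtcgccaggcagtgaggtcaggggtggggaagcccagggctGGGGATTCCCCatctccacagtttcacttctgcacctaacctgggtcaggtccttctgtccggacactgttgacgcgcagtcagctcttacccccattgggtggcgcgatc
B2m, chr2:122147437-122147686, plus strand: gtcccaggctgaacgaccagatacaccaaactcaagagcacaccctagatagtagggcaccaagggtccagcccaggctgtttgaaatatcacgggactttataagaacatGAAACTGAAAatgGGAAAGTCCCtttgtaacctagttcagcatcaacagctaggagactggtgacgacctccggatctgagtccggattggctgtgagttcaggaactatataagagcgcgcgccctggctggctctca
Psmb9 to Tap1, chr17:34187331-34187555, plus strand: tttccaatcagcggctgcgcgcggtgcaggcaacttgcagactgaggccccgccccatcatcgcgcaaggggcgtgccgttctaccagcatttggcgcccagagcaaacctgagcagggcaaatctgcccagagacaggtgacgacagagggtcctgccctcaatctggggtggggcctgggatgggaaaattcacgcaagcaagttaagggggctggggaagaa

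The Irf1 window held a GAS match that began 90 bases before the start site and an NF-kB match 13 bases before it. The B2m window held an ISRE match at 139 bases and an NF-kB match at 126 bases, which did not overlap. H2-D1 and H2-K1 each held a pair of overlapping NF-kB matches, which began 171 and 111 bases before the start site. They lay inside a run of 47 bases that both windows share letter for letter and that no promoter of another gene in the table holds. The window between Psmb9 and Tap1 held none of these letters. The Psmb8 window, not printed, also held a GAS match, 97 bases before the start site, and the Psmb8 promoter was not called in any comparison. Guanine and cytosine made up 71.2% of the Irf1 window, 60.8% of H2-D1, 58.4% of H2-K1 and 50.8% of B2m. A match describes letters, not a site. Only exact matches to these letters were marked, so a window without a match may still hold a variant.

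Most calls at these genes came from the cachexia comparisons, in which more of all regions were called too. They went in both directions. Regions were called with limma at an adjusted p under 0.05 (Benjamini-Hochberg over all 177251 regions tested), and a log2 change is on the scale of log2(signal + 1). In C26 cachexia against C26 PBS 12 of the 66 regions rose and 4 fell, where 6.91% of all regions rose and 7.13% fell. In 8025 cachexia against 8025 PBS 6 rose and 4 fell, where 6.99% of all regions rose and 5.38% fell. In either direction that was 15.2% of the 66, beside 12.4% of all. The 4 falls in each model were near the shares over all regions. Without 8025 PBS replicate 2 the 8025 count of 10 became 5. Macrophage promoter signal was higher in the same 8025 cachexia libraries, by the values above. In C26 pre-cachexia against C26 PBS 3 rose and 0 fell, beside 0.970% and 0.296% of all regions, or 1.27% in either direction. The 3 were 4.55% of the 66. C26 cachexia against C26 pre-cachexia gave 3 higher and 2 lower regions, beside 2.16% and 3.24% of all, or 5.40% in either direction. This count of 5 became 3 without C26 cachexia replicate 3, 2 without C26 cachexia replicate 4 and 2 without C26 pre-cachexia replicate 2.

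The weight-stable tumors gave few calls at these genes, and few over all regions. In NC26 tumor against NC26 PBS 1 region rose, the Irf1 promoter, where 0.146% of all regions rose and 0.0401% fell. This was 1.52% of the 66. In MC38 tumor against MC38 PBS 0 regions were called by limma or by edgeR, 3 had an unadjusted p under 0.05 in limma, and 0.0186% of all regions were called (0.0181% higher, 0.000564% lower). The median log2 change over the 66 regions was 0.09 in C26 cachexia, 0.07 in C26 pre-cachexia, -0.01 in 8025 cachexia, 0.13 in NC26 tumor and 0.04 in MC38 tumor, against medians of -0.01, -0.01, -0.01, -0.03 and 0.00 over all regions.

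**Figure D1:**
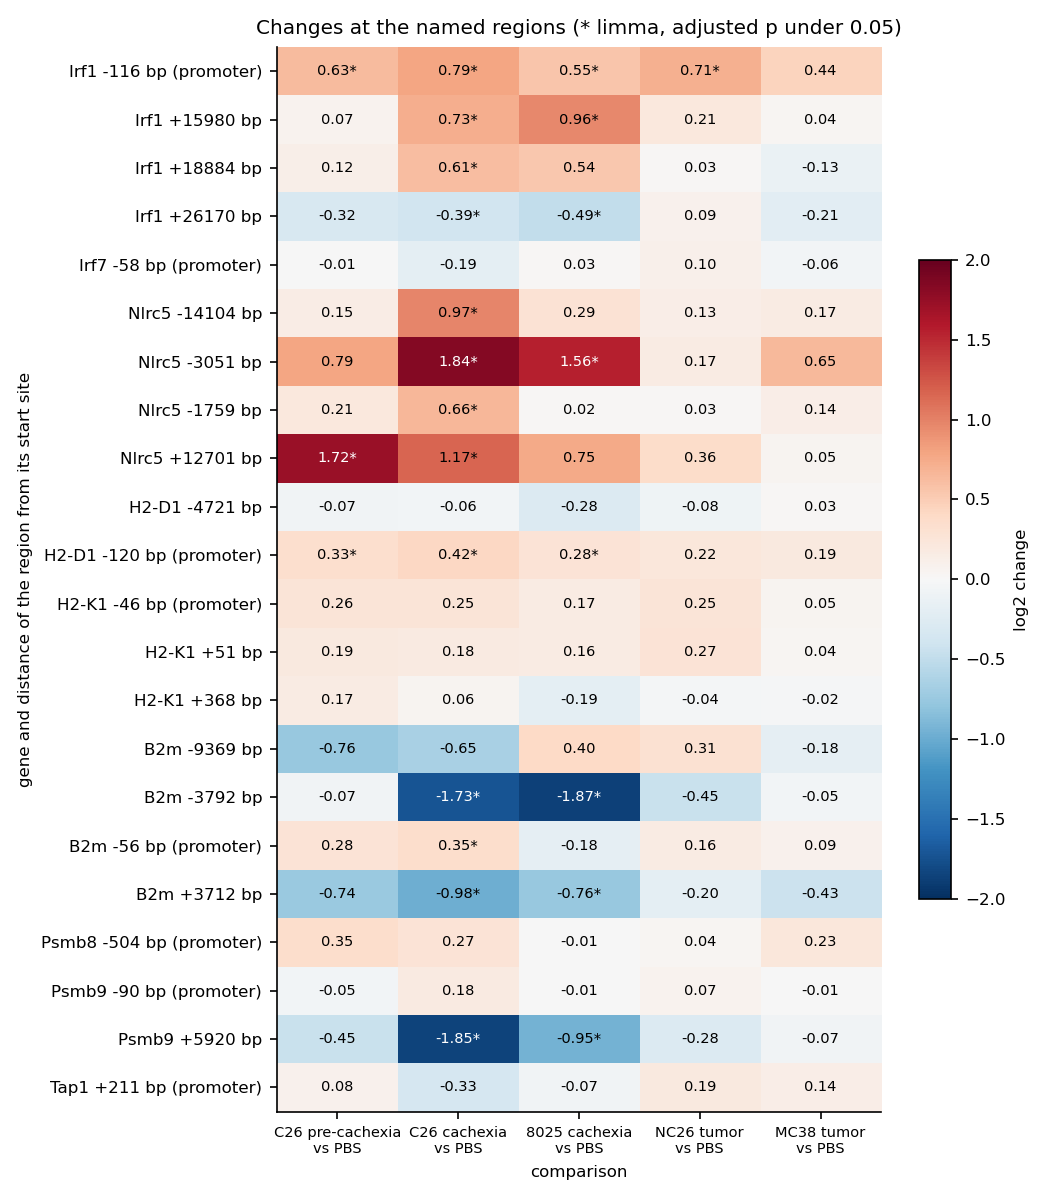
Log2 change of the 22 named regions (rows, by gene and distance in bp from the start site) in 5 comparisons against PBS (columns). Red is higher and blue lower in the tumor-bearing group, and an asterisk marks an adjusted p under 0.05 (limma). The Irf1 promoter carries an asterisk in 4 columns, and the largest falls lie outside the promoters, at B2m and Psmb9.

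The promoter of Irf1, the transcription factor that interferon gamma induces directly, was more open in both cachexia groups, in pre-cachexia and in weight-stable NC26 tumor-bearing mice. Its region (chr11:53769698-53770098, centred 116 bp before the start site) covers the GAS match shown above. In C26 cachexia it held 128, 128, 127 and 133 tags per 10 M, against 66.6, 66.9, 77.1 and 75.7 in C26 PBS. The groups did not overlap, and the log2 change was 0.79 (SE 0.11, adjusted p = 2.1e-06). In C26 pre-cachexia the values were 118, 138, 108 and 116, again all above the same PBS libraries (log2 change 0.63, SE 0.11, adjusted p = 0.0012). Cachexia and pre-cachexia differed by 0.16 (SE 0.11, adjusted p = 0.52), and this difference was not called. Both C26 comparisons share the same PBS libraries.

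The direction was the same in the other cohorts. In 8025 cachexia the region held 168, 127, 147 and 134, against 78.8, 102 and 104 in 8025 PBS, without overlap (log2 change 0.55, SE 0.12, adjusted p = 0.0018). In NC26 tumor-bearing mice it held 121, 96.3, 127 and 130, against 61.4, 58.1, 58.8 and 92.5 in NC26 PBS. These groups did not overlap either (log2 change 0.71, SE 0.11, adjusted p = 0.00095), the change was 0.86 within library series A and 0.56 within series B, and without the shallow tumor replicate 1 the adjusted p was 0.0098. In MC38 tumor-bearing mice it held 97.9, 137, 162 and 120, against 120, 61.7, 81.8 and 106 in MC38 PBS. There the groups overlapped as deposited, and the log2 change of 0.44 (SE 0.11, adjusted p = 0.22) was not called. The change was 0.40 within series A and 0.49 within series B. After the scaling used for the test the MC38 groups did not overlap. Log2 values minus the PBS mean were 0.233 to 0.707 in tumor and -0.182 to 0.146 in PBS.

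The test of the differences between these effects called none at the Irf1 promoter. The C26 cachexia effect exceeded the NC26 tumor effect by 0.08 (SE 0.16, adjusted p = 0.87), the 8025 cachexia effect exceeded the MC38 tumor effect by 0.10 (SE 0.17, adjusted p = 0.87), and the C26 cachexia effect exceeded the 8025 cachexia effect by 0.24 (SE 0.17, adjusted p = 0.72). Ordered by group mean, the region held 144 ± 17.8 in 8025 cachexia, 129 ± 27.1 in MC38 tumor, 129 ± 2.60 in C26 cachexia, 120 ± 13.0 in C26 pre-cachexia and 119 ± 15.3 in NC26 tumor (SD, n = 4 each). The PBS groups followed, with 95.0 ± 14.1 in 8025 PBS (n = 3), 92.4 ± 25.9 in MC38 PBS, 71.6 ± 5.59 in C26 PBS and 67.7 ± 16.6 in NC26 PBS (n = 4 each). The only neighbors in this order that lay further apart than the larger of their SDs were NC26 tumor and 8025 PBS. Of the other 3 regions within 1 kb of an Irf1 start site, none was called: the region 34 bp before a second start site changed by 0.12 in C26 cachexia and -0.10 in 8025 cachexia, and the one 189 bp after that start site by 0.18 and 0.12.

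**Figure D2:**
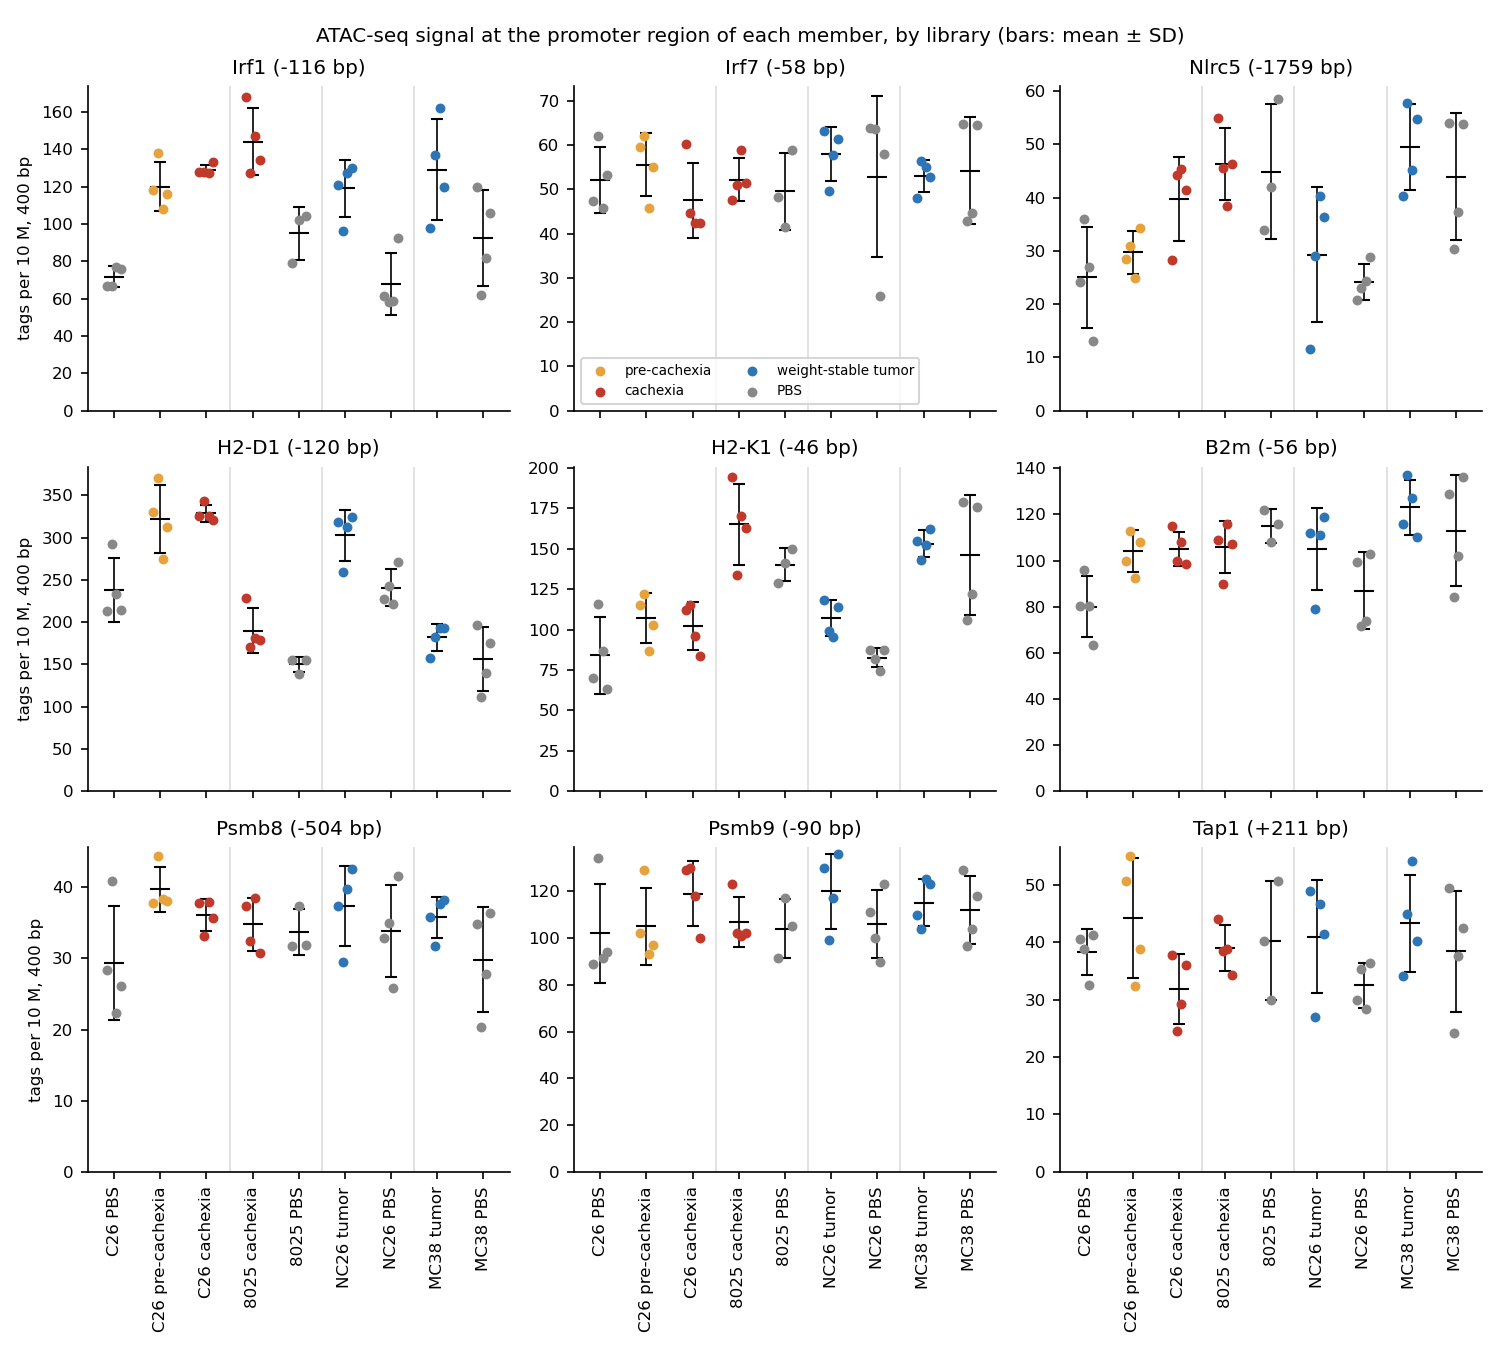
ATAC-seq signal (tags per 10 M in 400 bp, linear axes from 0) at the promoter region of each of the 9 genes, with 1 point per library and the group mean ± SD as black bars. For Nlrc5 the nearest region, 1759 bp upstream, is shown, and the Psmb9 region also covers the Tap1 start site. Orange is pre-cachexia, red cachexia, blue weight-stable tumor and gray PBS. All C26 cachexia and pre-cachexia points of Irf1 lie above 100, while its C26 PBS points lie between 66.6 and 77.1.

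Beyond the promoter, the Irf1 neighborhood changed in C26 and 8025 cachexia together, mostly inside the intron of the adjacent noncoding gene Gm12216. The region 15980 bp downstream (chr11:53786253-53786653) held 47, 46.7, 56.7 and 55.2 in C26 cachexia, against 31.2, 39.5, 30.6 and 19.6 in C26 PBS. The 8025 cachexia libraries held 68.3, 63.0, 44 and 56.4, against 28.4, 20.4 and 36.8 in 8025 PBS. Neither pair overlapped, and the region rose by 0.73 (SE 0.18, adjusted p = 0.0040) in C26 and by 0.96 (SE 0.20, adjusted p = 0.00055) in 8025 cachexia. This region stood at 33.2, 31, 33.5 and 35.2 in C26 pre-cachexia, a log2 change of 0.07 against PBS. Cachexia exceeded pre-cachexia by 0.66 (SE 0.18, adjusted p = 0.023). That call ended without C26 cachexia replicate 3 (0.60, adjusted p = 0.081), C26 cachexia replicate 4 (0.61, adjusted p = 0.084) or C26 pre-cachexia replicate 2 (0.57, adjusted p = 0.12), and with library totals alone (0.61, adjusted p = 0.14). In weight-stable mice the changes were 0.21 (NC26) and 0.04 (MC38), not called. The 8025 cachexia effect exceeded the MC38 effect by 0.93 (SE 0.27, adjusted p = 0.061), which was not called with all libraries but was called without 8025 cachexia replicate 3 (1.03, adjusted p = 0.044), 8025 PBS replicate 4 (1.07, adjusted p = 0.034), MC38 PBS replicate 2 (1.12, adjusted p = 0.019) or MC38 tumor replicate 4 (1.03, adjusted p = 0.041).

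Other calls in the same intron were smaller. The region 18884 bp downstream (chr11:53789157-53789557) held 40.4, 39.9, 39.9 and 41.5 in C26 cachexia, against 20.3, 37.9, 25.4 and 20.3 in C26 PBS (log2 change 0.61, SE 0.18, adjusted p = 0.018). In 8025 cachexia its change was 0.54 (SE 0.20, adjusted p = 0.067). The C26 call did not hold without C26 PBS replicate 1 (0.58, adjusted p = 0.050, just above the threshold) or replicate 4 (0.57, adjusted p = 0.057), or with library totals alone (0.66, adjusted p = 0.063), and the 8025 change was called without 8025 PBS replicate 1 (0.72, adjusted p = 0.031). The region 26170 bp downstream (chr11:53796443-53796843) fell instead. It held 66.3, 70.0, 54.1 and 59.6 in C26 cachexia, against 74.5, 96.6, 81.7 and 65.2 in C26 PBS (log2 change -0.39, SE 0.12, adjusted p = 0.021), with overlap between the groups. Mice with 8025 cachexia had 64.2, 58.4, 60.4 and 57.6, against 75.1, 75.8 and 96.5 in 8025 PBS (log2 change -0.49, SE 0.13, adjusted p = 0.0072). Both calls rested on single libraries: the C26 one ended on leaving out cachexia replicate 3 (-0.32, adjusted p = 0.10), cachexia replicate 4 (-0.37, adjusted p = 0.056), PBS replicate 1 (-0.35, adjusted p = 0.069) or PBS replicate 2 (-0.37, adjusted p = 0.055), and the 8025 call without PBS replicate 4 (-0.41, adjusted p = 0.067). With library totals alone neither was called (-0.33, adjusted p = 0.28 in C26 and -0.44, adjusted p = 0.17 in 8025). Of the other Irf1 regions away from the promoter, those 19043 and 35549 bp downstream were called, both higher in 8025 cachexia (0.63 and 0.44) and the second also in C26 cachexia (0.39). The region at 19043 bp overlaps the one at 18884 bp and shares reads with it, so they are not separate loci. A peak was listed at 19043 bp in 3 of 35 libraries. The most open region of the locus, 24460 bp downstream with a mean of 183 over all libraries, changed by 0.11 and -0.01 and was not called.

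**Figure D3:**
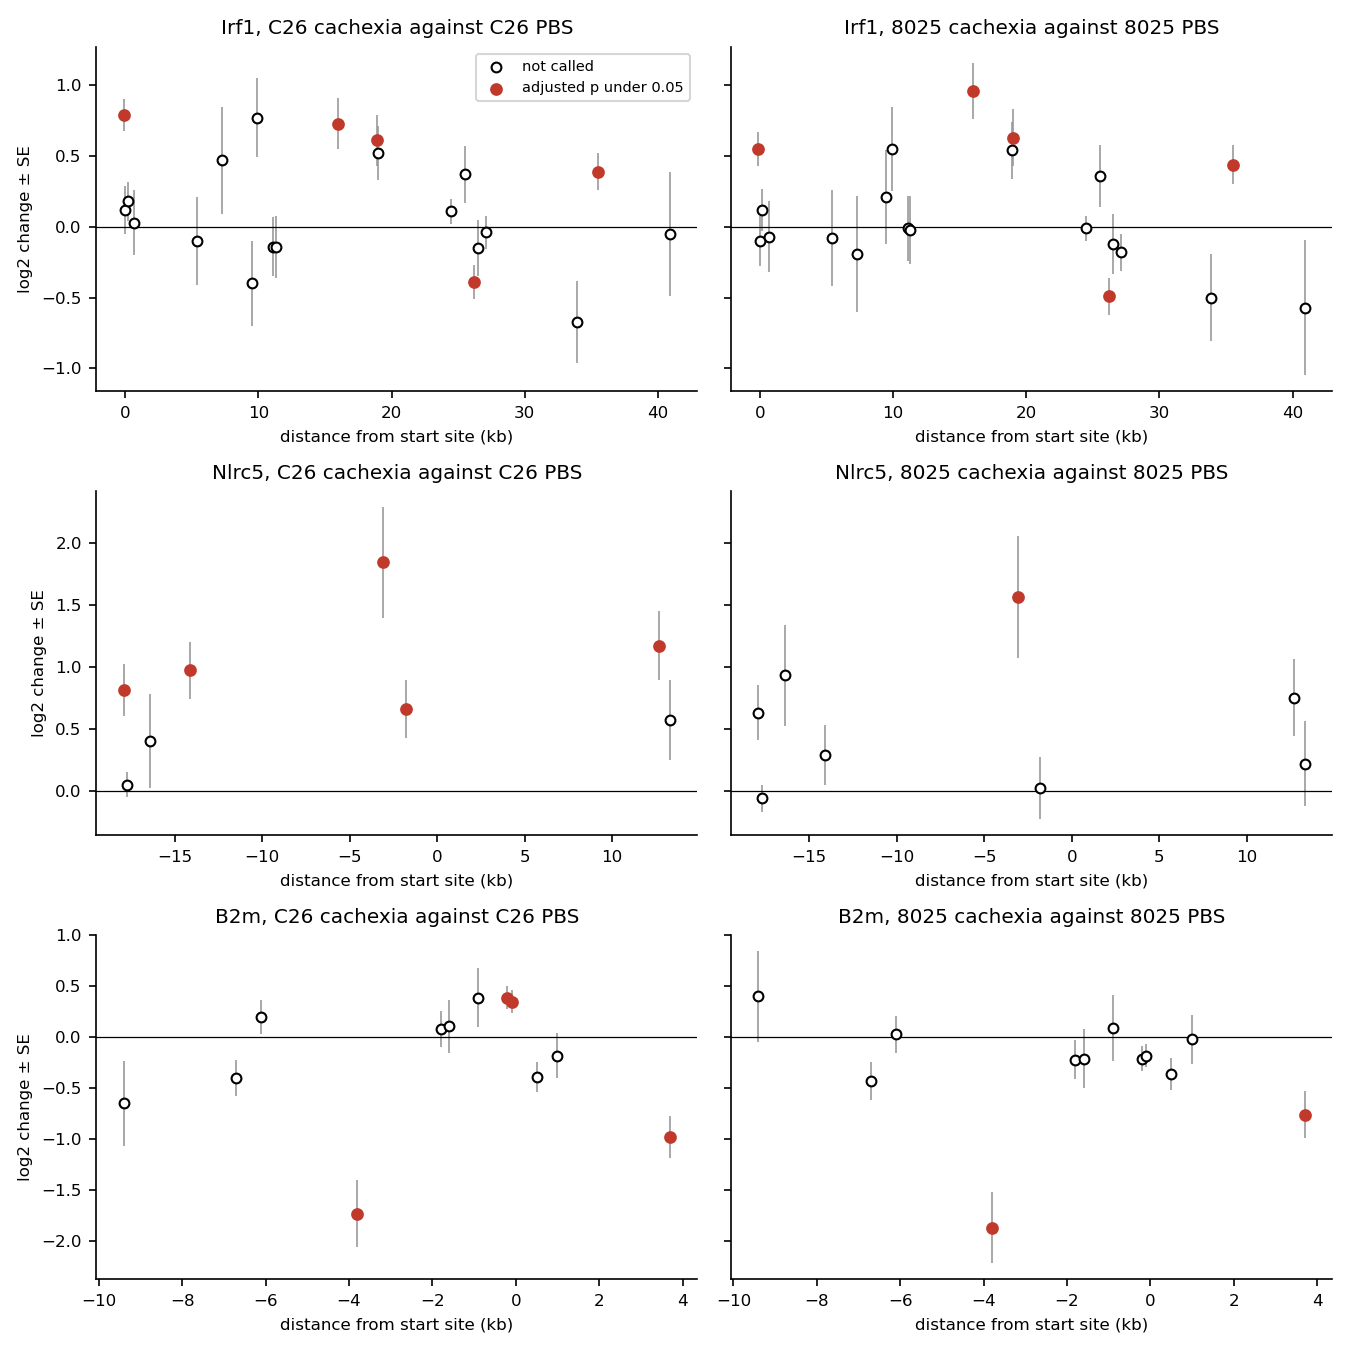
Log2 change ± SE of every region of Irf1 (top), Nlrc5 (middle) and B2m (bottom) against its distance from the start site in kb, for C26 cachexia against PBS (left) and 8025 cachexia against PBS (right). Filled points passed an adjusted p under 0.05 (limma). Near Irf1 the promoter and the region at +15980 bp are filled in both panels, and at B2m the deepest point on both sides is the region at -3792 bp.

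Nlrc5, the transactivator that binds class I promoters through their shared SXY module, had 8 regions and none within 1 kb of its start site. All 8 had a log2 change above 0 in C26 cachexia, and their median was 0.74 against -0.01 over all regions. Of the 8, 5 were called higher, beside 6.91% of all regions. The regions 17943 and 17689 bp upstream overlap and share reads. In 8025 cachexia 7 of 8 were above 0, with a median of 0.46, and 1 was called higher, beside 6.99% of all regions. The region 3051 bp upstream (chr8:94469512-94469912) was the one called in both. It held 16.6, 7.91, 14.6 and 7.54 in C26 cachexia, against 1.71, 3.19, 1.24 and 3.62 in C26 PBS, without overlap (log2 change 1.84, SE 0.45, adjusted p = 0.0034). In 8025 cachexia it held 9.17, 16.7, 19.4 and 18.9, against 7.17, 3.17 and 3.60 in 8025 PBS, also without overlap (log2 change 1.56, SE 0.49, adjusted p = 0.027). A peak was listed there in 8 of 35 libraries, so these are low signals, and the 8025 call ended without 8025 cachexia replicate 2 (1.51, adjusted p = 0.059), 3 (1.44, adjusted p = 0.077) or 4 (1.47, adjusted p = 0.066), or without 8025 PBS replicate 2 (1.38, adjusted p = 0.13) or 4 (1.41, adjusted p = 0.099). With all libraries the C26 cachexia effect here was not called larger than the NC26 tumor effect. It was called when NC26 tumor replicate 2 was left out (2.13, adjusted p = 0.050). NC26 tumor held 0 in the shallow replicate 1, then 8.13, 6.05 and 8.91, against 3.73, 4.20, 1.62 and 4.25 in NC26 PBS. The NC26 change was -0.65 within series A, which holds the shallow library, and 0.98 within series B.

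Some Nlrc5 calls were made at 1 stage of C26 cachexia and some at both. An intronic region 12701 bp downstream (chr8:94485264-94485664) held 29.5, 22.9, 10.0 and 25.8 in C26 pre-cachexia, against 6.19, 7.01, 3.10 and 5.07 in C26 PBS, without overlap (log2 change 1.72, SE 0.28, adjusted p = 0.00033). In C26 cachexia it held 22.2, 9.09, 17.5 and 8.57 and had risen by 1.17 (SE 0.28, adjusted p = 0.0030). The 8025 cachexia libraries held 34.6, 28.4, 24.8 and 23.8, against 13.7, 13.8 and 19.3 in 8025 PBS. These groups did not overlap, but the log2 change of 0.75 was not called. A region 14104 bp upstream (chr8:94458459-94458859) was called in cachexia but not in pre-cachexia. It held 26.4, 28.5, 29.2 and 33.9 in C26 cachexia, 23, 12.0, 17.3 and 16.5 in C26 pre-cachexia and 12.8, 18.5, 20.1 and 7.97 in C26 PBS, so that cachexia stood above both without overlap. It rose by 0.97 against PBS (SE 0.23, adjusted p = 0.0019) and by 0.82 against pre-cachexia (SE 0.23, adjusted p = 0.021). The second call ended without C26 cachexia replicate 3 (0.81, adjusted p = 0.051) or 4 (0.74, adjusted p = 0.089), or without C26 pre-cachexia replicate 2 (0.62, adjusted p = 0.17) or 4 (0.82, adjusted p = 0.052), and with library totals alone (0.77, adjusted p = 0.063).

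The Nlrc5 region nearest to the start site, 1759 bp upstream (chr8:94470804-94471204), held 28.2, 44.3, 45.4 and 41.5 in C26 cachexia, against 24.1, 36, 26.9 and 13.0 in C26 PBS. The groups overlapped, and the call (log2 change 0.66, SE 0.23, adjusted p = 0.045) was lost without C26 cachexia replicate 2 (0.63, adjusted p = 0.10), 3 (0.59, adjusted p = 0.13) or 4 (0.63, adjusted p = 0.099), or without C26 PBS replicate 3 (0.69, adjusted p = 0.065) or 4 (0.44, adjusted p = 0.25), and with library totals alone (0.71, adjusted p = 0.066). Its changes in the other cohorts were 0.02 (8025), 0.03 (NC26) and 0.14 (MC38), none called. NC26 tumor held 11.5 in the shallow replicate 1, then 29.1, 40.3 and 36.3, against 20.7, 23.1, 24.3 and 28.8 in NC26 PBS. The NC26 change was -0.22 within series A, which holds the shallow library, and 0.28 within series B.

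Irf7, the factor that amplifies type I interferon production, had no called region. Its promoter region (chr7:141266282-141266682) held 60.2, 44.7, 42.4 and 42.5 in C26 cachexia, against 47.4, 62.1, 45.8 and 53.2 in C26 PBS (log2 change -0.19, SE 0.16, adjusted p = 0.48). Mice with 8025 cachexia had 47.6, 50.9, 58.9 and 51.5, against 48.3, 41.6 and 58.9 in 8025 PBS (log2 change 0.03, SE 0.17, adjusted p = 0.94). Group means ran between 47.5 and 58, every neighbor in their order lay within the larger SD, and none of the 6 Irf7 regions was called in any of the 10 comparisons.

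Of the class I members, H2-D1 was the one whose promoter was called higher in both cachexia models. Its change was not tested against those of the other class I genes. The H2-D1 promoter is the most open of the member regions (chr17:35262774-35263174, mean 237). In C26 cachexia it held 326, 343, 325 and 321, against 213, 293, 233 and 214 in C26 PBS, without overlap (log2 change 0.42, SE 0.07, adjusted p = 5.6e-05). In C26 pre-cachexia it held 330, 371, 275 and 312, with 1 library below the highest PBS library as deposited. The change against PBS was 0.33 (SE 0.07, adjusted p = 0.011). After the scaling used for the test these groups did not overlap. Log2 values minus the PBS mean were 0.232 to 0.401 in pre-cachexia and -0.103 to 0.07 in PBS. In 8025 cachexia it held 229, 171, 181 and 179, against 155, 139 and 155 in 8025 PBS, without overlap (log2 change 0.28, SE 0.08, adjusted p = 0.013). The pre-cachexia call ended without pre-cachexia replicate 1 (0.30, adjusted p = 0.072) or, among the controls, C26 PBS replicate 3 (0.30, adjusted p = 0.064), and the 8025 call without 8025 cachexia replicate 1 (0.20, adjusted p = 0.093) or PBS replicate 2 (0.24, adjusted p = 0.094). Both were also lost when libraries were scaled by their totals alone (adjusted p = 0.12 and 0.17). The 8025 call ended too when only the cohort compared was fitted (0.29, adjusted p = 0.078).

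In weight-stable mice the H2-D1 promoter changed by 0.22 (SE 0.07, adjusted p = 0.25) in NC26 and by 0.19 (SE 0.07, adjusted p = 0.65) in MC38. It held 318, 259, 313 and 324 in NC26 tumor, against 227, 243, 222 and 271 in NC26 PBS, and 158, 183, 193 and 193 in MC38 tumor, against 197, 112, 140 and 175 in MC38 PBS. Both pairs overlapped as deposited, but neither did after the scaling used for the test. Log2 values minus the PBS mean were then 0.096 to 0.352 in NC26 tumor and -0.058 to 0.048 in NC26 PBS. In MC38 they were 0.158 to 0.233 in tumor and -0.097 to 0.091 in PBS. The C26 cachexia effect exceeded the NC26 tumor effect by 0.20 (SE 0.10, adjusted p = 0.36) and the 8025 cachexia effect exceeded the MC38 effect by 0.09 (SE 0.11, adjusted p = 0.80), so no difference between models was called.

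H2-K1, the other classical heavy chain, shares the 47 bases printed above with H2-D1, but its promoter region (chr17:34000193-34000593) was not called in any comparison with PBS. It held 112, 115, 96.2 and 83.6 in C26 cachexia, against 70.0, 116, 87.0 and 63.0 in C26 PBS (log2 change 0.25, SE 0.11, adjusted p = 0.14). The 8025 cachexia libraries held 194, 134, 170 and 163, against 129, 141 and 150 in 8025 PBS (log2 change 0.17, SE 0.12, adjusted p = 0.41). The changes were 0.26 in C26 pre-cachexia, 0.25 in NC26 tumor and 0.05 in MC38 tumor. Class I genes are near-identical copies, and reads from one may have been placed at another, so values of single H2 genes are uncertain.

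B2m, the light chain of every class I molecule, had a promoter region (chr2:122147431-122147831) with the ISRE and NF-kB letters that rose in C26 cachexia. It held 115, 100, 108 and 98.4 there, against 80.5, 95.9, 80.2 and 63.4 in C26 PBS, without overlap (log2 change 0.35, SE 0.11, adjusted p = 0.019). The call ended without C26 cachexia replicate 1 (0.32, adjusted p = 0.057) or 3 (0.34, adjusted p = 0.051), or without C26 PBS replicate 3 (0.33, adjusted p = 0.058) or 4 (0.30, adjusted p = 0.084), and with libraries scaled by their totals alone (0.41, adjusted p = 0.11). In C26 pre-cachexia the change was 0.28 (SE 0.11, adjusted p = 0.23). In 8025 cachexia the region held 109, 89.7, 116 and 107, against 122, 108 and 116 in 8025 PBS, a log2 change of -0.18 (SE 0.11, adjusted p = 0.35). The C26 cachexia effect exceeded the 8025 cachexia effect by 0.53 (SE 0.16, adjusted p = 0.18), which was not called.

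Away from the promoter, other B2m regions closed in both cachexia models. The region 3792 bp upstream, in intron 2 of the neighboring gene Patl2 (chr2:122143695-122144095), held 10.3, 3.16, 1.62 and 3.77 in C26 cachexia, against 16.6, 15.9, 19.8 and 8.69 in C26 PBS (log2 change -1.73, SE 0.33, adjusted p = 0.00014). One cachexia library lay above the lowest PBS library. In C26 pre-cachexia it held 13.4, 12.7, 14.6 and 19.9, and cachexia lay 1.66 below that on the log2 scale (log2 change -1.66, SE 0.33, adjusted p = 0.00089). Mice with 8025 cachexia had 2.96, 3.39, 2.95 and 5.24, against 13.7, 16.9 and 15.2 in 8025 PBS, without overlap (log2 change -1.87, SE 0.35, adjusted p = 0.00018). Weight-stable mice showed changes of -0.45 (NC26) and -0.05 (MC38), not called.

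This Patl2 region also differed between models. The 8025 cachexia effect lay below the MC38 tumor effect by a log2 difference of -1.82 (SE 0.48, adjusted p = 0.034), the 1 region of 66 called in this test, where 1.70% of all regions were (0.922% higher and 0.779% lower). The call ended without 8025 cachexia replicate 1, 2 or 3, 8025 PBS replicate 1 or 2, MC38 PBS replicate 2 or 3, or MC38 tumor replicate 2 or 3, with values between -1.85 and -1.54 and adjusted p between 0.054 and 0.11. It also ended with library totals alone (-1.82, adjusted p = 0.059). The C26 cachexia effect was called against the NC26 effect when C26 cachexia replicate 1 was left out (-1.68, adjusted p = 0.026). The region 3712 bp downstream, in intron 2 of B2m (chr2:122151199-122151599), held 21.1, 24.1, 18.8 and 21.3 in C26 cachexia, against 36.3, 35, 61.9 and 36.2 in C26 PBS, without overlap (log2 change -0.98, SE 0.21, adjusted p = 0.00096). In 8025 cachexia it held 21.9, 20.8, 20.2 and 20.4, against 29.3, 50.1 and 28.3 in 8025 PBS (log2 change -0.76, SE 0.23, adjusted p = 0.022), a call lost without 8025 PBS replicate 2 (-0.49, adjusted p = 0.27) and with library totals alone (-0.71, adjusted p = 0.078). In C26 pre-cachexia its change of -0.74 was not called, but was without pre-cachexia replicate 3 (-0.88, adjusted p = 0.037) or, among the controls, C26 PBS replicate 2 (-0.89, adjusted p = 0.037).

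The promoters of the peptide-processing genes did not pass the test in any comparison. Psmb9, a catalytic subunit of the immunoproteasome, and Tap1, which carries peptides into the endoplasmic reticulum, share the window printed above, and a single region (chr17:34187220-34187620) covers both start sites. It held 129, 130, 118 and 100 in C26 cachexia, against 89.0, 134, 91.6 and 94.2 in C26 PBS (log2 change 0.18, SE 0.10, adjusted p = 0.27). The 8025 cachexia libraries held 123, 102, 101 and 102, against 91.6, 117 and 105 in 8025 PBS (log2 change -0.01, SE 0.11, adjusted p = 0.96). Both pairs overlapped. The Tap1 region 211 bp after the start site (chr17:34187567-34187967) held 37.8, 24.5, 29.2 and 36 in C26 cachexia, against 40.6, 38.9, 32.5 and 41.3 in C26 PBS (log2 change -0.33, SE 0.17, adjusted p = 0.22). Psmb8, another catalytic subunit, had its promoter region 504 bp upstream (chr17:34197491-34197891), with 37.8, 33.2, 37.9 and 35.6 in C26 cachexia, against 28.4, 40.8, 22.3 and 26.1 in C26 PBS (log2 change 0.27, SE 0.15, adjusted p = 0.27). A second Psmb8 region, 145 bp after the start site (chr17:34198140-34198540), held 33.2, 40.2, 27.6 and 29.5 in C26 pre-cachexia and 28.8, 23.7, 25.9 and 23 in C26 cachexia, against 13.0, 19.1, 19.2 and 18.5 in C26 PBS. Neither group overlapped PBS, but the log2 changes of 0.77 (SE 0.23, adjusted p = 0.079) and 0.47 (SE 0.23, adjusted p = 0.17) were not called. In 8025 cachexia the changes were -0.07 at the Tap1 region, -0.01 at the Psmb8 region upstream and 0.07 at the one downstream, none called.

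One region of this group closed, at the 3′ end of Psmb9 (chr17:34181210-34181610, 5920 bp after its start). It held 7.39, 9.49, 9.72 and 4.11 in C26 cachexia, against 20.5, 34.1, 26.6 and 31.9 in C26 PBS, without overlap (log2 change -1.85, SE 0.25, adjusted p = 4e-07). C26 pre-cachexia held 26, 29.6, 16.8 and 17.0, and cachexia differed from it by -1.40 (SE 0.25, adjusted p = 0.00023). Mice with 8025 cachexia had 7.99, 13.1, 7.16 and 11.4, against 24.9, 13.4 and 20.1 in 8025 PBS (log2 change -0.95, SE 0.27, adjusted p = 0.012). The 8025 call ended without 8025 cachexia replicate 3 (-0.84, adjusted p = 0.051) or 8025 PBS replicate 1 (-0.72, adjusted p = 0.13). NC26 tumor held 20.2, 18.0, 22.2 and 17.8, against 26.1, 19.6, 17.8 and 25.8 in NC26 PBS, a change of -0.28 that was not called (-0.23 within series A and -0.33 within series B). The C26 cachexia effect lay below the NC26 effect by a log2 difference of -1.57 (SE 0.35, adjusted p = 0.0087), the 1 of 66 regions called in that test, beside 2.14% of all regions (1.04% higher and 1.10% lower). That count was 2 without C26 cachexia replicate 1 and 2 without NC26 tumor replicate 2. Between the C26 and 8025 cachexia effects 0 of 66 regions were called by limma or edgeR, with 5 at an unadjusted p under 0.05 in limma, beside 0.103% of all regions (0.0282% higher and 0.0745% lower).

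The mouse strains differed at the class I genes without any tumor, and in opposite directions at H2-D1 and H2-K1. The strains carry different H2 haplotypes and mm10 is a C57BL/6J sequence. BALB/c PBS libraries (8, from the C26 and NC26 cohorts) were set against C57BL/6N PBS libraries (7, from MC38 and 8025). The H2-D1 promoter held 213 to 293 (median 230) in BALB/c and 112 to 197 (median 155) in C57BL/6N, without overlap (log2 difference 0.77, SE 0.06, adjusted p = 4.2e-14). The region 4721 bp upstream of H2-D1 (chr17:35258173-35258573) held 44.2 to 61.2 (median 50.8) in BALB/c and 21.4 to 31.7 (median 23.4) in C57BL/6N (log2 difference 1.14, SE 0.13, adjusted p = 1.1e-09), and in all 35 libraries, tumor-bearing ones included, the strains did not overlap there either, with 40.4 to 61.2 in 20 BALB/c and 19.9 to 31.7 in 15 C57BL/6N libraries.

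H2-K1 was lower in BALB/c. Its promoter region held 63.0 to 116 (median 84.2) in BALB/c and 106 to 179 (median 141) in C57BL/6N (log2 difference -0.72, SE 0.09, adjusted p = 3.8e-08), with 1 BALB/c library above the lowest C57BL/6N library. The overlapping regions 51 and 368 bp after the start site differed by -0.80 (SE 0.09, adjusted p = 2.9e-09) and -1.15 (SE 0.23, adjusted p = 0.00016). The B2m promoter, on another chromosome, held 63.4 to 103 (median 80.3) in BALB/c and 84.2 to 136 (median 116) in C57BL/6N (log2 difference -0.35, SE 0.09, adjusted p = 0.0036). A region 9369 bp upstream of B2m, in the same Patl2 intron (chr2:122138118-122138518), held 3.03 to 15.6 in BALB/c and 0.620 to 3.09 in C57BL/6N (log2 difference 1.93, SE 0.34, adjusted p = 3.4e-05). In all, 3 of the 66 regions were higher and 9 lower in BALB/c, where 6.42% of all regions were higher and 7.04% lower.

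Among the regulators, Nlrc5 had 3 regions lower in BALB/c, among them those 1759 bp upstream (log2 difference -0.60, SE 0.19, adjusted p = 0.023) and 12701 bp downstream (-0.94, SE 0.23, adjusted p = 0.0033). The first of these 2 calls was lost without 8025 PBS replicate 4 (-0.52, adjusted p = 0.075), C26 PBS replicate 4 (-0.49, adjusted p = 0.064) or MC38 PBS replicate 1 (-0.55, adjusted p = 0.063). The Irf1 promoter differed by -0.24 (SE 0.09, adjusted p = 0.077) and was called lower in BALB/c without 8025 PBS replicate 1 (-0.29, adjusted p = 0.049), C26 PBS replicate 4 (-0.28, adjusted p = 0.035), MC38 PBS replicate 2 (-0.29, adjusted p = 0.044) or NC26 PBS replicate 4 (-0.32, adjusted p = 0.021). No Irf7, Psmb8, Psmb9 or Tap1 region was called. Strain, cohort and the placing of reads from another haplotype cannot be told apart in this comparison.

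**Figure D4:**
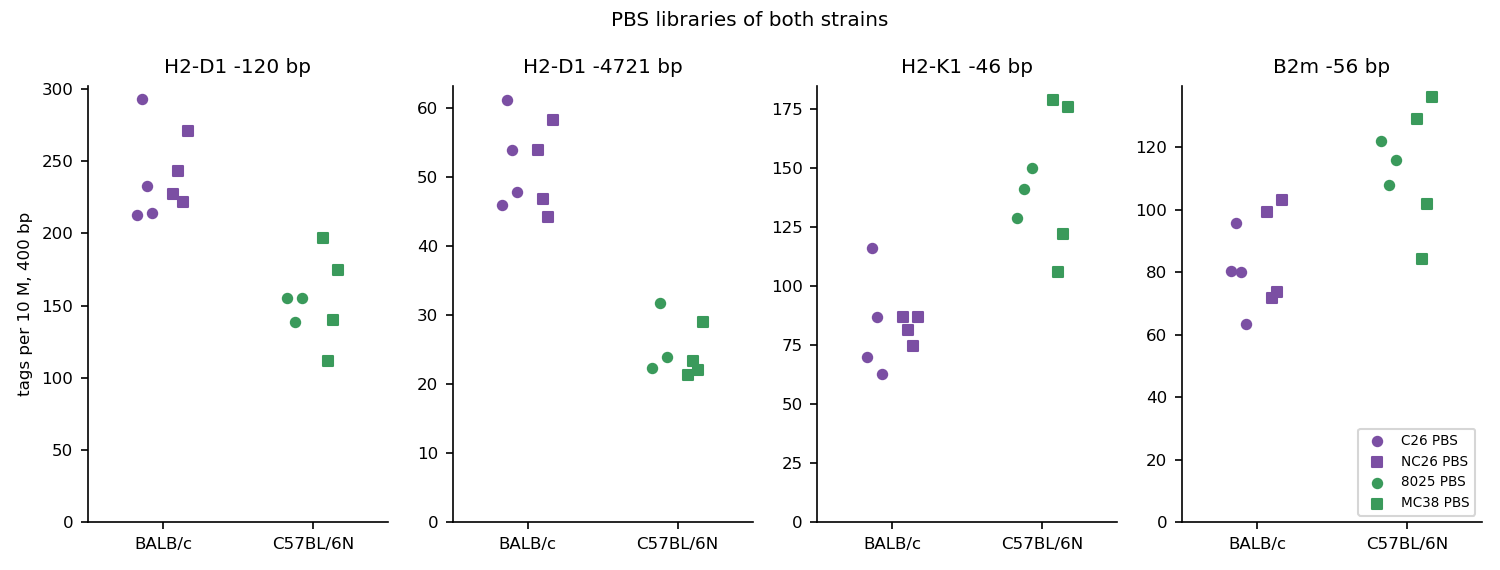
ATAC-seq signal (tags per 10 M in 400 bp, linear axes from 0) in the 15 PBS libraries at 4 regions, by strain, with circles for the C26 and 8025 cohorts and squares for NC26 and MC38. BALB/c points of H2-D1 lie at 213 to 293, above C57BL/6N points at 112 to 197, while at H2-K1 and B2m the BALB/c points lie lower.

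The promoter regions varied in how closely they followed that of Irf1. For Nlrc5 the nearest region, 1759 bp upstream, stood in, and for Tap1 the region 211 bp after the start site. The Psmb9 region covers the start sites of both Psmb9 and Tap1, so its r is that of the shared promoter. After the mean of the own cohort's PBS group was subtracted from each log2 value, Pearson's r with the Irf1 promoter was 0.60 for H2-D1, 0.50 for B2m, 0.38 for Psmb9, 0.32 for H2-K1, 0.29 for Nlrc5, 0.08 for Psmb8, -0.05 for Tap1 and -0.15 for Irf7 over the 20 tumor-bearing libraries. Over the 15 PBS libraries the same values lay between -0.39 (H2-K1) and 0.29 (Tap1), with -0.05 for H2-D1. Among promoters of 11162 other genes, those most like the Irf1 promoter over all 35 libraries were Slc41a2, Fos, Map3k1, Tmem176b and Fetub, with r between 0.840 and 0.885. Over the same 35 libraries r was 0.825 for H2-D1. All 35 libraries include the split between PBS and tumor-bearing animals, on which such an r can rest. In C26 cachexia against PBS, the log2 changes were 1.17 for Slc41a2, an ion transporter, 1.14 for Fos, an immediate-early transcription factor, 2.40 for Map3k1, a stress kinase, 1.11 for Tmem176b, a membrane protein, and 3.90 for Fetub, a secreted protease inhibitor made by hepatocytes.

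**Figure D5:**
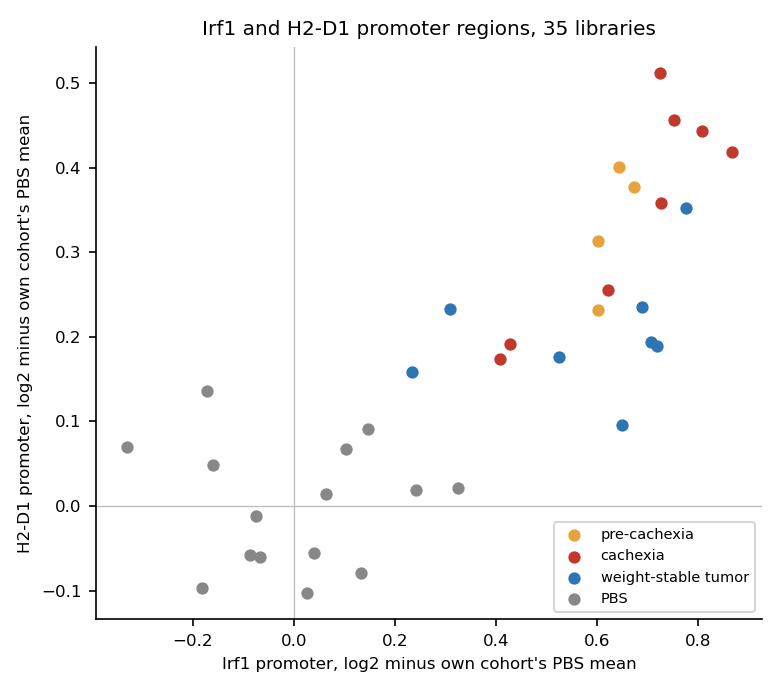
Log2 signal of the H2-D1 promoter against that of the Irf1 promoter in each of 35 libraries, after subtraction of the PBS mean of the own cohort. Orange is pre-cachexia, red cachexia, blue weight-stable tumor and gray PBS. Cachexia and pre-cachexia points lie to the upper right of the PBS points, and within the 15 PBS points r is -0.05.

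The counts for lists of other genes of the pathway are read beside the 14% of all regions called in C26 cachexia (6.91% higher and 7.13% lower) and the 12.4% called in 8025 cachexia (6.99% higher and 5.38% lower). For 16 genes of interferon signalling (among them receptors, JAK kinases, IRFs and feedback inhibitors), 24 of 239 regions were higher and 3 lower in C26 cachexia, and 16 and 10 in 8025 cachexia. In C26 pre-cachexia 5 were higher and 0 lower, where 0.970% of all regions were higher and 0.296% lower. Both directions together, the calls made up 11.3% of the list in C26 cachexia and 10.9% in 8025 cachexia, below the shares over all regions. In C26 cachexia the low share came from the falls. Calls there were 24 higher and 3 lower, whereas 6.91% of all regions were higher and 7.13% lower. In C26 cachexia 8 of the 16 genes had higher regions only, 1 lower only, 1 both and 6 none. With 239 regions over 16 genes, a gene can hold a call through its number of regions. No share over all genes was computed to set beside this. An intergenic region at -40062 bp from the start of Jak1, the kinase of both interferon receptor types, held 47.4 ± 6.55 in C26 cachexia and 12.0 ± 5.79 in C26 PBS (SD, n = 4 each), a rise of 1.93 (adjusted p = 1.5e-06). In 8025 cachexia it rose by 1.45 (adjusted p = 0.00051). A region 90796 bp downstream of the start of Socs1, which inhibits JAK kinases, rose by 0.93 (adjusted p = 0.00017) and 0.66 (adjusted p = 0.016) in the same models. An intronic region of Irf2, 97796 bp downstream of its start, rose by 0.91 in C26 cachexia (adjusted p = 5e-05). Its change of 0.15 in 8025 cachexia was not called.

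Among 48 interferon-stimulated genes, 46 had regions: 19 of 317 tested were higher and 10 lower in C26 cachexia, and 20 and 6 in 8025 cachexia. That is 9.15% and 8.20% of the list, again below the shares over all regions. An intronic region of Ifi47, an interferon-inducible GTPase, held 79.4 ± 9.31 in C26 cachexia and 19.6 ± 5.65 in C26 PBS (SD, n = 4 each), a rise of 1.96 (adjusted p = 5.2e-09). It rose by 2.07 in 8025 cachexia (adjusted p = 2e-08), by 1.07 in C26 pre-cachexia (adjusted p = 0.0030) and by 1.11 in NC26 tumor (adjusted p = 0.0084). The Ifitm2 promoter, of a membrane protein that restricts virus entry, rose by 1.93 in C26 cachexia (adjusted p = 2.8e-07) and 1.42 in 8025 cachexia (adjusted p = 0.00023), whereas a region at -42625 bp from the start of the GTPase gene Gbp5 fell by 2.51 in C26 cachexia (adjusted p = 1.1e-07).

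Of 23 further class I presentation genes with regions, 3 had higher regions only, 2 lower only, 1 both and 17 none in C26 cachexia, with 4 of 106 regions higher and 4 lower, and 3 and 4 in 8025 cachexia, or 7.55% and 6.60% of the list, below the shares over all regions. Here too no share over all genes was computed. A region 15813 bp downstream of the start of H2-Q10, a class I gene whose product hepatocytes secrete, rose by 1.48 in C26 cachexia (adjusted p = 1.5e-05), 1.44 in 8025 cachexia (adjusted p = 9.3e-05), 1.03 in C26 pre-cachexia (adjusted p = 0.015) and 1.65 in NC26 tumor (adjusted p = 0.00028). A region 2853 bp downstream of the start of Cd274, which encodes the checkpoint ligand PD-L1, rose by 1.21 in C26 cachexia (adjusted p = 2.4e-05) and 0.90 in 8025 cachexia (adjusted p = 0.0035). A region at -7691 bp from the start of Canx, a chaperone of class I folding, fell by 1.85 in C26 cachexia (adjusted p = 4.8e-05). The standard proteasome subunits that the immunoproteasome replaces (Psmb5, Psmb6 and Psmb7) had 5 of 33 regions higher and 1 lower in C26 cachexia, and 4 and 0 in 8025 cachexia, or 18.2% and 12.1% of few regions. An intronic region 22681 bp downstream of the start of Psmb7 rose by 1.35 in C26 cachexia (adjusted p = 0.00016) and by 1.03 in 8025 cachexia (adjusted p = 0.0088). The Psmb6 promoter held 124 ± 9.04 in C26 cachexia and 82.5 ± 17.7 in C26 PBS (SD, n = 4 each; log2 change 0.55, adjusted p = 2e-04), and its change in 8025 cachexia was 0.13 (adjusted p = 0.55), not called. Over these lists the median log2 changes in C26 cachexia were 0.06, 0.07, 0.02 and 0.01, against -0.01 over all regions.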

How the data were processed

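ATAC-seq of tagged hepatocyte nuclei gave 35 libraries in 9 groups, each from its own animal per the labels. Per the submitters' processing notes, BWA 0.7.5a-r405, SAMtools, HOMER and the mm10 build were used. The deposited table of 177904 merged regions holds signal, which per the file headers is the tag count in 400 bp, normalised to a library total of 10 M tags. It also assigns each region to the nearest start site. All values came out as whole read ends within a tolerance of 0.1.

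Levels are printed as deposited, and overlap between groups refers to these levels unless scaled values are given. For tests, signal was rescaled by TMM (factors 0.799 to 1.25), a pseudocount of 1 was added, and log2 values were fitted with limma 3.58.1 (R 4.3.3; trend, robust) over all groups with library series as covariate. Filtering by edgeR's default rule (count 10, total 15) left 177251 regions, and 653 were dropped. P-values were two-sided and Benjamini-Hochberg adjusted over all regions tested, with a threshold of 0.05. edgeR 4.0.16 on the recovered reads was an alternative, along with other pseudocounts, scalings, array weights, distances, a replicate block and each library left out. Code was tested on simulated data. Members and gene lists were chosen with earlier results of these data known. Named regions were each member's promoter region (within 1 kb, highest mean; otherwise the nearest) and up to 3 other called regions per member in order of the lowest adjusted p over 10 comparisons. List examples were the 3 lowest adjusted p in C26 cachexia or pre-cachexia against PBS. The Irf1 regions at +19043, +35549, -34, +189 and +24460 bp and the Psmb8 region at +145 bp were named after their values were seen. Replicate numbers did not pair the samples.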

Additional observations from a re-analysis of the deposited data

Results flagged for a closer look

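Each of the following values stood apart from the other 3 libraries of its group by Dixon's test at the 95% level, which flags about 1 in 20 groups by chance. Here 10 of 176 groups tested were picked out. At the Irf1 promoter C26 cachexia replicate 4 held 133, against 127 to 128 in the others, and NC26 PBS replicate 4 held 92.5, against 58.1 to 61.4. At the Irf7 promoter C26 cachexia replicate 1 held 60.2, against 42.4 to 44.7, and NC26 PBS replicate 3 held 25.9, against 57.9 to 63.9. The Psmb8 promoter held 44.4 in C26 pre-cachexia replicate 2, against 37.8 to 38.4. The region shared by Psmb9 and Tap1 held 123 in 8025 cachexia replicate 1, against 101 to 102, and 134 in C26 PBS replicate 2, against 89.0 to 94.2. The H2-D1 promoter held 229 in 8025 cachexia replicate 1, against 171 to 181, and without it the 8025 change was not called, as given above. The B2m intron region at +3712 bp held 61.9 in C26 PBS replicate 3, against 35 to 36.3. The Nlrc5 region at -14104 bp held 21.9 in NC26 PBS replicate 3, against 16.1 to 17.0.

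A test of the difference between tumor effects called 1 of 66 regions in each comparison named here. Over all regions it called 2.14% for C26 cachexia minus NC26 tumor and 1.70% for 8025 cachexia minus MC38 tumor. At the 3′ end of Psmb9 the C26 cachexia effect minus the NC26 tumor effect was -1.57 on the log2 scale (limma, adjusted p = 0.0087). In the Patl2 intron upstream of B2m the 8025 cachexia effect minus the MC38 tumor effect was -1.82 (limma, adjusted p = 0.034). The Patl2 call was lost under 11 of 25 alternatives.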

How the results depend on the processing

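No called change of a named region turned its direction under any alternative. Counting each called value once under each alternative, the call was kept 374 times and lost 17 times under other settings, and kept 343 times and lost 47 times when a library was left out. The count of called regions among the 66 was 16 in C26 cachexia, 10 with an adjusted p threshold of 0.01, 10 with library totals alone and 9 within 10 kb of a start site (12 to 15 with a library left out). In 8025 cachexia the count of 10 became 4, 5 and 6 under these settings (5 to 9), and for C26 cachexia against pre-cachexia 5 became 2 under each (2 to 5). In C26 pre-cachexia 3 became 5 with array weights and 5 with only the cohorts compared (2 to 4). For the 8025 minus MC38 effect 1 became 0 at 0.01 and with library totals, and 2 with array weights, edgeR or a pseudocount of 5 (0 to 2). For the C26 minus 8025 effect 0 became 2 with array weights, and for the C26 minus NC26 effect the range was 1 to 2 with a library left out. Replicate numbers did not pair the samples, since 1 of 23 same-numbered pairs had r over 0.1 and 7 of 35 libraries correlated best with their own number. With the replicate block the counts were 16 in C26 cachexia, 7 in 8025 cachexia and 0 for the 8025 minus MC38 effect, and the strain contrast could not be fitted. Named 8025 cachexia calls that ended with the block were Nlrc5 -3051 bp (1.44, limma adjusted p = 0.078) and Psmb9 +5920 bp (-0.83, adjusted p = 0.080), and so did B2m -3792 bp for the 8025 minus MC38 effect (-1.76, adjusted p = 0.11). The 3.47 M tags of NC26 tumor replicate 1 limit its low values, and regions under about 10 tags per 10 M rest on few reads.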
